A study of Mus musculus with 66 samples.

Results

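The early time step after injection of control brain extract was examined in the hippocampus of C57BL/6 mice labelled 12 months old, with libraries from 3 months post injection (mpi) set against libraries from 1 mpi. Its members were taken from the labels alone: 5 libraries labelled Ctrl at 1 mpi and 6 labelled Ctrl at 3 mpi, 11 of the 66 libraries in the series. The study sequenced poly(A) RNA of mouse hippocampus after injection of brain extract from Alzheimer's disease (AD) or from controls, at 2 age labels and at several times, to follow seeded tau pathology with age. In both groups compared here the animals had received control extract, so both carry the injection itself, and no uninjected group was analysed here. The sources used here do not give the injection site, the amount of extract, the time of day at collection, or whether the age label refers to injection or collection. Reference groups from the same 12-month table were Ctrl at 5 mpi (7 libraries) and AD extract at 1 and 3 mpi (6 libraries each), and from the 3-month-old mice Ctrl at 1 and 3 mpi (5 libraries each).

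Injection of brain extract brings with it a wound and foreign protein and lipid, and groups given control extract carry this without the disease extract. Microglia and astrocytes are the cells that answer such an injury, through phagocytic, lysosomal, complement and cytokine genes. The circadian clock runs in hippocampal cells as well: CLOCK and BMAL1 (encoded by Arntl) bind E-box sequences and drive Per, Cry, Nr1d1, Ciart and Dbp, and the products of most of these genes feed back on the clock. The transcripts of clock output genes such as Dbp swing strongly within each day, so their level in a dissected tissue depends on the hour of collection.

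Sequences upstream of Ciart, Dbp and Hspa5 are shown here, as the 250 bases before the RefSeq start on GRCm38.p6, 5′ to 3′ on the gene's strand. Capitals mark the E-box CACGTG, which reads the same on both strands, in the clock genes, and the endoplasmic reticulum stress response element (CCAAT, any 9 bases, then CCACG), searched on both strands, in the chaperone gene. The Ciart window lies at chr3:95882229-95882478 on the minus strand, that of Dbp at chr7:45704997-45705246 on the plus strand, and that of Hspa5 at chr2:34771840-34772089 on the plus strand. Dbp was the clock gene that passed the test, and Ciart the gene whose step had the smallest p between the age labels. Hspa5 belongs to the chaperone group below and did not pass.
Ciart: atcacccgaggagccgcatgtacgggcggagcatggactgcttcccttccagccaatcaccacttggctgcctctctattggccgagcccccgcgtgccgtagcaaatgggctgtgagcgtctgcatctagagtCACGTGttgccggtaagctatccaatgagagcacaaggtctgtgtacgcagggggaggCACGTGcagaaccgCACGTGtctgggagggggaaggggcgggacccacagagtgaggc
Dbp: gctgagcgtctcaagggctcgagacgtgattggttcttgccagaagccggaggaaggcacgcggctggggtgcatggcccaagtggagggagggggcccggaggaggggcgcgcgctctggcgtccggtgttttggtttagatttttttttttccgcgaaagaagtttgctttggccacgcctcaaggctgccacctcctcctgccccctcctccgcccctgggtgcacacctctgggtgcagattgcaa
Hspa5: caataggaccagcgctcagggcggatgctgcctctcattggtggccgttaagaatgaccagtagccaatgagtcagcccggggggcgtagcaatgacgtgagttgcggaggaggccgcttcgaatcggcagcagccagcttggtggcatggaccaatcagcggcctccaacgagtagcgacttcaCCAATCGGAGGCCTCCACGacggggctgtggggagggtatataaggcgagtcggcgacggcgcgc
The Ciart window holds 3 E-boxes, with first bases 116, 58 and 44 bases before the start, and the Dbp window holds none. Only the exact letters CACGTG within these 250 bases were searched, so an E-box elsewhere, or with other letters, would be missed. The Ciart and Dbp windows also reach into the genes as placed below, whose annotated starts lie upstream of the RefSeq start. An E-box was present in 6.02% of 32851 windows of this length, and 20 of those windows held 3 or more. Among the 14 clock genes with a window, 5 held an E-box (Bhlhe41, Ciart, Cry1, Per1 and Tef). Some of these genes have several windows, and by window the count was 6 of 19. An exact match to the stress element in Hspa5 begins 65 bases before its start. Of all windows, 0.113% held a match. Among 17 chaperone and stress genes with a window those of Calr, Hsp90b1 and Hspa5 did, in 3 of 19 windows. Those of Pdia4, Xbp1 and Trib3 did not. No E-box was found in the windows of Mfsd4a and 4930578M01Rik, which passed the test below. These matches describe letters in the sequence, not occupancy.

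Few genes passed between 1 and 3 mpi. Of 20084 genes tested, 4 were higher and 0 lower at 3 mpi (0.0199% called, limma-trend on log2(value + 1), Benjamini-Hochberg adjusted p under 0.05). They were the clock output gene Dbp, the transporter-family gene Mfsd4a, the ubiquitin ligase gene Hectd2 and the long noncoding RNA 4930578M01Rik. A rise here is a higher level at 3 mpi than at 1 mpi. The groups are different libraries, so time since injection cannot be told apart from any difference in age or in collection. At an unadjusted p under 0.05 there were 1669 genes (8.31%), 747 higher and 922 lower at 3 mpi, where 1004.2 would be expected by chance. Over all genes 48% had a log2 fold change above 0 and 52% below, with a median of 0.00. The call rests on the spread pooled over all 37 libraries of the 12-month table: with the 11 libraries alone 0 genes passed, with 1711 at an unadjusted p under 0.05. edgeR's quasi-likelihood test on the recovered reads called 9 genes, all higher, and DESeq2 41, 32 higher and 9 lower. Leaving out 1 library at a time gave 0 to 10 calls: 0 without replicate 2 or 5 of 1 mpi or replicate 2, 3 or 6 of 3 mpi, 1 without replicate 4 of 1 mpi or replicate 1 of 3 mpi, and 10 without replicate 5 of 3 mpi.

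The libraries compared held 43253379 to 57329441 recovered reads, 44990308 to 57329441 at 1 mpi and 43253379 to 51927395 at 3 mpi, and the deposited scaling factors ran from 0.963 to 1.03. All 8 genes of a hippocampal neuron identity list were measured in every library, and their summed level was 7055 to 8644 at 1 mpi and 6956 to 7934 at 3 mpi. Each library label carries a number of its own, but the labels do not say whether that number names an animal. The p-values therefore describe scatter among these libraries, which may be partly technical. Choroid plexus RNA varied widely within both groups: the summed level of 17 marker genes ran from 738.2 to 6530 at 1 mpi and from 524.8 to 8655 at 3 mpi. By Xist and Ddx3y, 3 of 5 libraries at 1 mpi and 3 of 6 at 3 mpi had the female pattern of high Xist and low Ddx3y. In whole tissue, fewer cells of a type and less RNA per cell cannot be told apart.

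Dbp encodes a PAR bZIP transcription factor that carries the clock's rhythm to output genes (chr7:45705088-45710203, GRCm38). Its level, in scaled RPM (reads per fixed library total, divided by the authors' scaling factor, as deposited), was 27.15, 30.3, 44.96, 28.15 and 31.89 in replicates 1 to 5 at 1 mpi. At 3 mpi it ran from 42.66 to 47.86, with a median of 46.13. Replicate 3 of 1 mpi lay inside the range of the later group, and the other four lay below it, so the groups overlapped through 1 library. The rise was 0.51 on the log2 scale (SE 0.0926, limma-trend adjusted p = 0.0244), with 6 of 6 libraries at 3 mpi above the mean of 1 mpi. Without replicate 3 of 1 mpi the rise was 0.63 (adjusted p = 9.47e-05, limma-trend). Dbp also passed without replicate 4 or 5 of 3 mpi. Without any other single library it did not pass (adjusted p = 0.0567 to 0.0959, limma-trend). Over all alternatives the adjusted p ran from 9.47e-05 to 0.187.

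Mfsd4a belongs to the major facilitator superfamily of membrane transporters (chr1:132022806-132068062). Its level was 51.46, 41.12, 44.67, 52.93 and 44.13 at 1 mpi and 53.0 to 64.53, median 60.87, at 3 mpi. The groups did not overlap, but the lowest library of 3 mpi (53.0) and the highest of 1 mpi (52.93) nearly touched. The rise was 0.36 on the log2 scale (SE 0.0655, limma-trend adjusted p = 0.0244). With single libraries left out, Mfsd4a passed without replicate 1 or 4 of 1 mpi or replicate 5 of 3 mpi. Without any other library it did not pass (adjusted p = 0.0555 to 0.108, limma-trend). Hectd2 encodes a HECT-type E3 ubiquitin ligase (chr19:36554639-36621135). Its level was 32.52, 36.06, 36.0, 29.45 and 35.48 at 1 mpi and 40.24 to 47.18, median 45.42, at 3 mpi. All later libraries lay above all earlier ones, a rise of 0.39 (SE 0.0752, limma-trend adjusted p = 0.0434). Leaving out replicate 3 of 1 mpi or replicate 4 or 5 of 3 mpi kept the call of Hectd2. Leaving out any other library lost it (adjusted p = 0.0525 to 0.138, limma-trend). Across all genes, groups did not overlap for 229 genes (1.14%), 102 of them higher and 127 lower at 3 mpi.

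4930578M01Rik is annotated as a processed transcript without a coding sequence (chr15:98983348-98996446) and its function is not known. Its level was 5.757, 4.288, 4.333, 4.259 and 5.002 at 1 mpi and 6.741 to 9.396, median 7.312, at 3 mpi, without overlap. Its rise of 0.60 (SE 0.104, limma-trend adjusted p = 0.0244) was the largest of those that passed. The call was lost without replicate 2, 4 or 5 of 1 mpi or replicate 2, 3 or 6 of 3 mpi (adjusted p = 0.0525 to 0.0877, limma-trend). This gene falls outside the rule for naming genes, which leaves out gene models, and is given because it is 1 of only 4 calls. Dbp shares 737 bases with Sphk2, and Hectd2 shares 7084 with the antisense gene Hectd2os, each on the opposite strand. Mfsd4a shares 9807 bases with Elk4 and 31141 with the noncoding RNA gene Gm26892, both also on the opposite strand. The sources used here do not state whether counting used strand, so reads in those stretches may be shared. Sphk2, Elk4 and Hectd2os gave log2 fold changes of -0.13, 0.08 and 0.21, with unadjusted p = 0.0751, 0.34 and 0.158 in the limma-trend fit. Gm26892 was not among the genes tested.

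**Figure D1:**
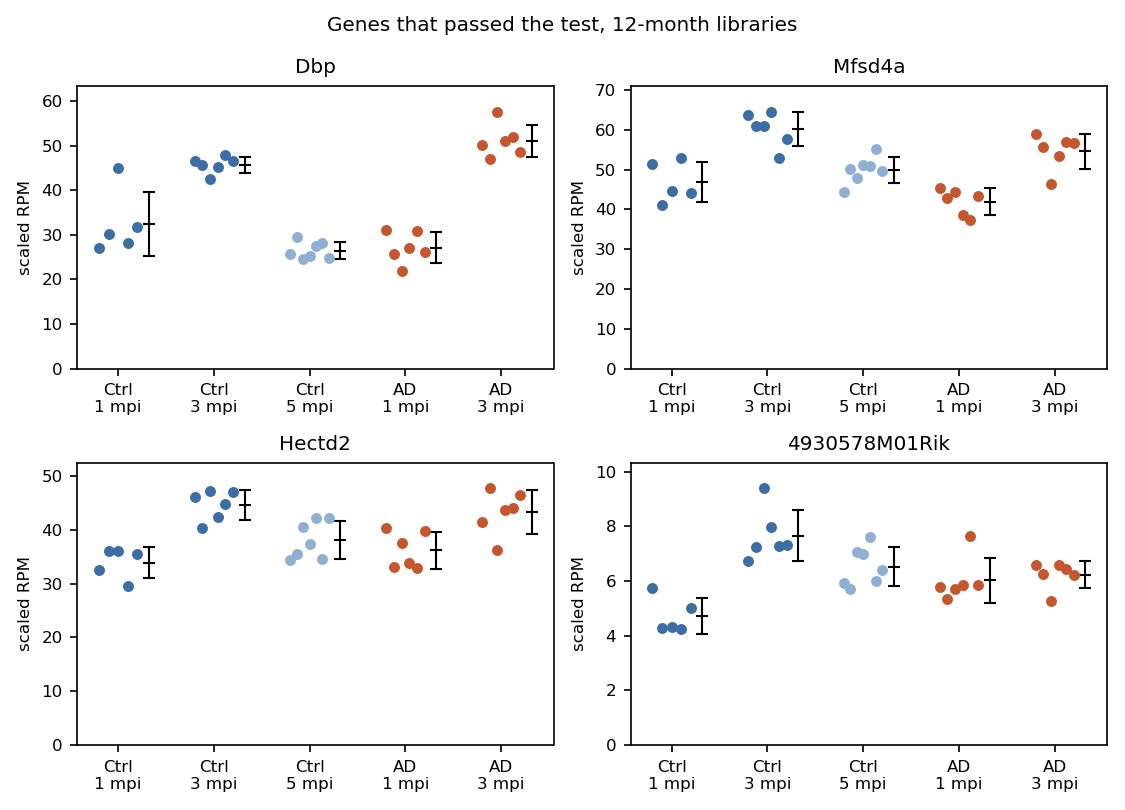
Levels of the 4 genes that passed the test (y axis, scaled RPM as deposited) in each 12-month library (points) by treatment and months post injection, with mean and SD beside the points. Blue points are control extract (paler at 5 mpi) and orange points AD extract; Dbp at 3 mpi lies between 42.66 and 47.86, above all libraries of 1 mpi but replicate 3, and at 5 mpi between 24.51 and 29.58.

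At 5 mpi Dbp stood at 26.48 ± 1.942 (SD, n = 7), below every library of 3 mpi. After AD extract its mean was 27.17 ± 3.462 (SD, n = 6) at 1 mpi and 51.14 ± 3.647 (SD, n = 6) at 3 mpi. The AD groups differed in the same direction, by 0.89 on the log2 scale, and did not overlap. Mfsd4a after AD extract went from a mean of 41.95 to 54.62, and Hectd2 from 36.21 to 43.24. 4930578M01Rik differed less there, 6.022 against 6.232, and stood at 6.527 after control extract at 5 mpi.

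Whether the control step differed from the AD step was tested as a difference of steps in the same fit. No gene passed: 0 of 20084 (0% called) in limma, edgeR's quasi-likelihood test and DESeq2, with 884 genes (4.4%) at an unadjusted p under 0.05 in limma against 1004.2 expected by chance. The difference for Dbp was -0.39 (SE 0.128), for Hectd2 0.14 and for 4930578M01Rik 0.55, all with adjusted p = 0.979 in limma-trend. This does not show that the steps were alike. Among the genes with the smallest p, Rer1, a protein of endoplasmic reticulum retrieval, had -0.30 after AD extract and -0.01 after control extract, and Hebp2, a heme-binding protein, -0.37 and 0.11. Mier2, a transcriptional corepressor, had 0.14 after AD extract and -0.19 after control extract. Uqcrb, a subunit of respiratory complex III, had -0.11 and 0.10, Acap3 0.17 and -0.11, and Nipal3 0.05 and -0.15, in the same order.

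Other genes with higher values at 3 mpi came close to the threshold without passing. Ndst4, a heparan sulfate sulfotransferase, had a level of 29.6, 43.45, 44.98, 36.45 and 42.08 at 1 mpi and 43.11 to 77.33, median 61.82, at 3 mpi. Its log2 fold change was 0.62 (limma-trend adjusted p = 0.0592), and the groups overlapped. Hdac9, a class IIa histone deacetylase, had 0.33 (adjusted p = 0.0599, limma-trend) and Wnt9a, a Wnt ligand, 0.66 (adjusted p = 0.0603, limma-trend). The levels of Wnt9a were 5.455, 3.843, 4.489, 5.634 and 4.133 at 1 mpi and 6.23 to 10.65, median 7.688, at 3 mpi, without overlap. The secreted metalloprotease gene Adamts20 had 0.49, Plppr4, a postsynaptic modulator of lysophosphatidic acid signalling, 0.20, and the adaptor gene Lmo7 0.27, with limma-trend adjusted p = 0.0796, 0.0796 and 0.0828. Asb11 had 0.64 and the kinase gene Mylk3 0.76, at levels between 0.985 and 3.692 in the 11 libraries.

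On the lower side no gene passed. Leaving out gene models and genes with a mean log2 level under 1, the 12 with the smallest p had log2 fold changes from -0.60 to -0.18. Ints3, a subunit of the Integrator complex, had -0.20 and Mdga1, an adhesion protein that binds neuroligins, -0.29, both with adjusted p = 0.0859 in limma-trend and without overlap. The level of Mdga1 was 65.09, 65.51, 64.25, 71.59 and 60.95 at 1 mpi, 48.43 to 58.56 at 3 mpi, median 53.72, and 69.99 on average at 5 mpi. Il34, a ligand of the microglial growth receptor CSF1R made by neurons, had -0.26 (adjusted p = 0.139, limma-trend): 43.39, 43.8, 36.81, 44.29 and 40.38 against 32.05 to 35.91, median 34.88, without overlap. Tacr3, the neurokinin B receptor, had -0.60 (adjusted p = 0.142, limma-trend). The others were Brinp2, the orphan receptor gene Mrgpre, Tbc1d9b, the E-box binding factor gene Usf1, the proline synthesis gene Pycrl, the glycosyltransferase gene Mgat5 and Pdrg1, from -0.34 to -0.18.

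Of the 16 clock genes, 12 were higher at 3 mpi, with a median log2 fold change of 0.10 against 0.00 for all genes, and 1 passed, Dbp. Without replicate 5 of 1 mpi the median was 0.06. At an unadjusted p under 0.05, 5 were higher and 1 lower, where 3.72% and 4.59% of all genes were. Nr1d1, which encodes the repressor REV-ERB alpha, had a level of 45.99, 59.1, 68.07, 51.88 and 54.62 at 1 mpi and 66.82 to 71.96, median 70.63, at 3 mpi. As for Dbp, replicate 3 of 1 mpi was the 1 library inside the later range; the log2 fold change was 0.33 (SE 0.0773, limma-trend adjusted p = 0.115). Nr1d2, its paralog, had 0.17, Bhlhe40, a basic helix-loop-helix repressor, 0.22, and Ciart, which represses CLOCK and BMAL1, 0.26, with limma-trend adjusted p of 0.362 to 0.489. The groups of all 3 overlapped. Tef, a PAR bZIP relative of Dbp, had -0.16 (adjusted p = 0.362, limma-trend), the opposite sign to Dbp.

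The core loop gave smaller values. Per1, Per2 and Per3, the period genes of the negative limb, had log2 fold changes of 0.11, 0.14 and 0.09, with unadjusted p from 0.257 to 0.378 in limma-trend. Arntl, whose rhythm runs opposite to that of Dbp, had 0.01 (SE 0.093): 38.54, 31.04, 26.84, 44.72 and 32.37 at 1 mpi and 31.79 to 38.62, median 34.13, at 3 mpi. In replicate 3 of 1 mpi Dbp and Nr1d1 were at their highest of that group and Arntl was at its lowest. The mean log2 level of the clock list was 5.778 at 1 mpi, 5.879 at 3 mpi and 5.721 at 5 mpi. After AD extract it was 5.669 at 1 mpi and 5.919 at 3 mpi.

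**Figure D2:**
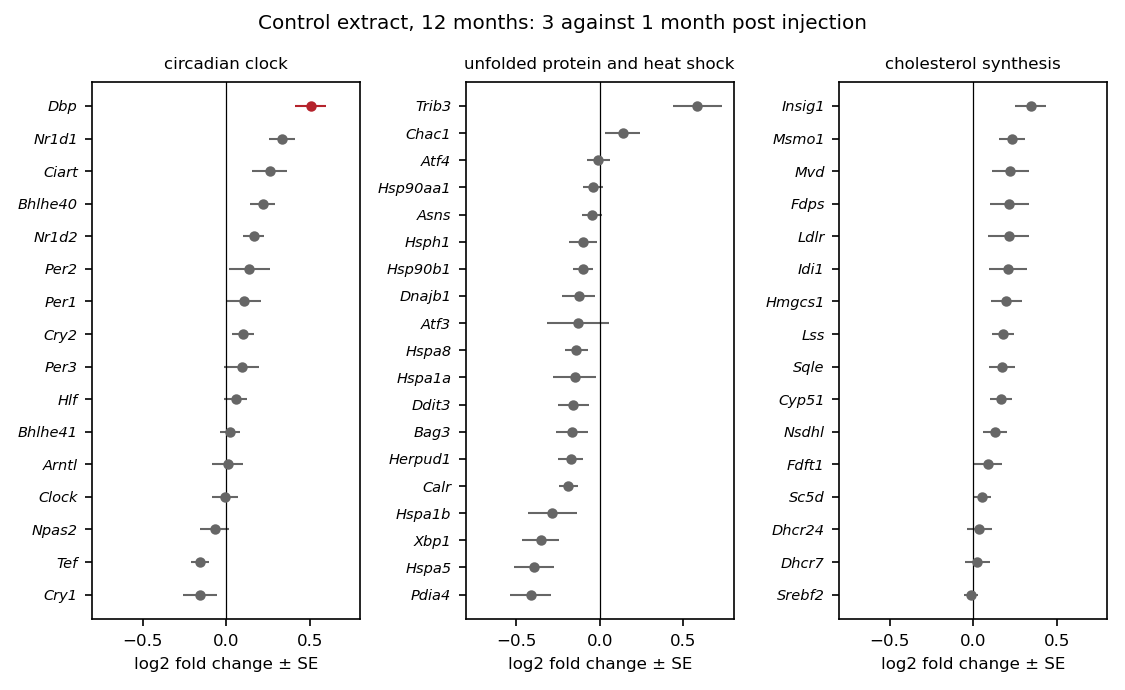
Log2 fold change of 3 against 1 mpi (x axis, with SE from the limma-trend fit) for members of the clock, unfolded protein and heat shock, and cholesterol synthesis lists after control extract at 12 months. Dbp, in red, is the member that passed the test; 17 of 19 chaperone and stress genes lie below 0, and the cholesterol genes drawn lie above it except Srebf2 at -0.01.

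In the mice labelled 3 months old, the step from 1 to 3 mpi after control extract was larger for Ciart and Dbp. In a joint fit of all 66 libraries, scaled together, 3 of 21297 genes differed in step between the age labels (0.0141% called; 2144 genes, 10.1%, at an unadjusted p under 0.05, where 1064.9 would be expected by chance): Ciart and Dbp, with a smaller rise at 12 months, and Gm14137. The level of Ciart (chr3:95878503-95882251) on this scale was 4.968, 5.341, 5.419, 6.319 and 7.11 in the 12-month libraries of 1 mpi, from lowest to highest, and 5.534 to 8.525 at 3 mpi. In the 3-month libraries it was 2.926 to 4.805 at 1 mpi and 8.55 to 11.43 at 3 mpi. The younger groups did not overlap and lay outside the range of these 12-month libraries, below it at 1 mpi and above it at 3 mpi. The step of Ciart was 0.26 at 12 months and 1.32 at 3 months, a difference of -1.06 (SE 0.155, limma-trend adjusted p = 9.51e-05), and it passed under all 29 alternatives. Ciart lies wholly within the antisense gene C920021L13Rik, so its reads may include that transcript.

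Dbp on the joint scale averaged 32.43 ± 7.286 (SD, n = 5) and 45.57 ± 1.603 (SD, n = 6) at 12 months, against 20.14 ± 8.712 and 58.75 ± 7.561 (SD, n = 5 each) at 3 months. Its steps were 0.50 and 1.60, a difference of -1.10 (SE 0.213, limma-trend adjusted p = 0.0201). Without replicate 3 of the 12-month 1 mpi group the difference was -0.98 (adjusted p = 0.114, limma-trend). The call was also lost without replicate 1 or 3 of the 3-month 1 mpi group or replicate 2 or 3 of the 3-month 3 mpi group (adjusted p = 0.0511 to 0.0874, limma-trend), and over all 29 alternatives the adjusted p ran from 0.000138 to 0.273. Nr1d1 had steps of 0.33 and 0.64, a difference of -0.31 (adjusted p = 0.407, limma-trend). Arntl had 0.01 and -0.40, a difference of 0.41 (adjusted p = 0.205, limma-trend). Over the clock list the median difference was -0.24, against 0.00 for all genes. The ages were deposited as separate tables, so age cannot be told apart from whatever else differed between those cohorts.

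**Figure D3:**
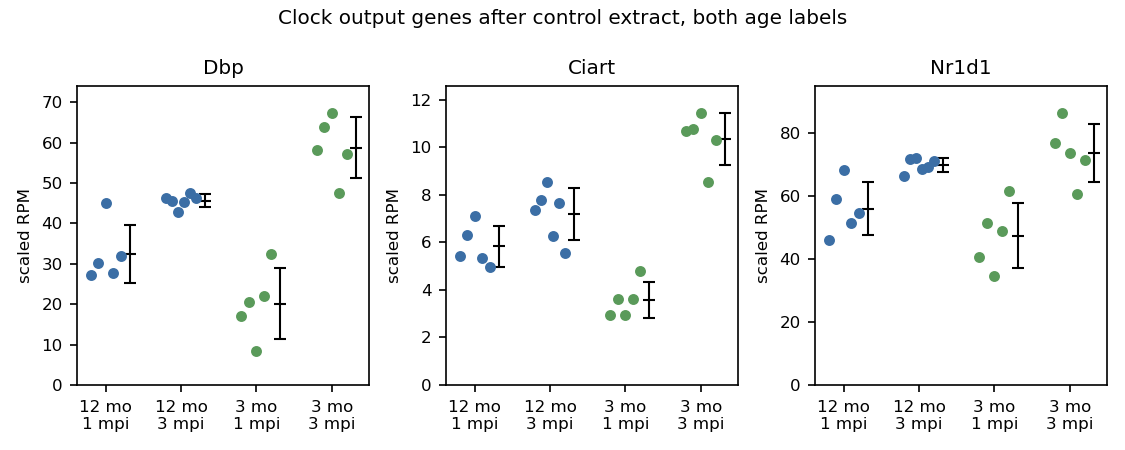
Levels of Dbp, Ciart and Nr1d1 (y axis, RPM scaled over both tables) in each control extract library (points) by age label and months post injection, with mean and SD beside the points. Blue points are the 12-month and green points the 3-month label; Ciart spans 2.926 to 4.805 in the 3-month libraries of 1 mpi and 8.55 to 11.43 in those of 3 mpi.

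Gm14137 passed with a difference of 0.60 (SE 0.112, limma-trend adjusted p = 0.0149) through the 3-month groups, where its mean was 0.538 at 1 mpi and 0.05838 at 3 mpi; in the 12-month libraries its mean was 0.03008 and 0.09213, with several libraries at 0. It is a gene model outside the rule for naming. Leaving out 1 library at a time gave 1 to 50 calls in this comparison, 50 without replicate 2 and 10 without replicate 5 of the 3-month 1 mpi group. edgeR's quasi-likelihood test called 1 gene, Ciart, and DESeq2 43. Just outside the threshold were Rpusd1, a pseudouridine synthase, with -0.45 (adjusted p = 0.0597, limma-trend), and, with 12-month steps above the 3-month steps, the kinase gene Rps6ka3 (0.42), Cdr1os (0.57) and the Ras GTPase activator gene Rasa2 (0.47).

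Genes of protein folding and stress were mostly lower at 3 mpi, though none passed. Of 19 members of the unfolded protein and heat shock list, 17 were lower (52% of all genes were), and the median log2 fold change was -0.14. At an unadjusted p under 0.05, 6 were lower and 1 higher, where 4.59% and 3.72% of all genes were. Hspa5, which encodes the chaperone BiP and carries the stress element shown above, had a level of 404.8, 424.5, 388.2, 401.6 and 471.9 at 1 mpi and 256.0 to 427.0, median 315.5, at 3 mpi. Its log2 fold change was -0.39 (SE 0.12, limma-trend adjusted p = 0.294), with 5 of 6 later libraries below the mean of 1 mpi. Pdia4, a disulfide isomerase, had -0.41, Xbp1, the transcription factor of the response, -0.35, and Calr, the chaperone calreticulin, -0.19. Hsp90b1, with 2 matches to the stress element, had -0.10 (unadjusted p = 0.0955, limma-trend). At 5 mpi the mean of Hspa5 was 426.3, and after AD extract it was 504.4 at 1 mpi and 334.7 at 3 mpi, again the lower value. Trib3, a pseudokinase induced by the ATF4 branch, went against the list with 0.58 (adjusted p = 0.145, limma-trend), at levels of 0.2488 to 0.5421 at 1 mpi and 0.4914 to 1.68 at 3 mpi. The list's mean log2 level was 5.844 to 5.975 at 1 mpi. At 3 mpi it was 5.65, 5.655, 5.822, 5.734, 5.92 and 5.874 in replicates 1 to 6, so replicates 5 and 6 lay inside the earlier range. Replicates 1, 2 and 4, the lowest, had the highest sex-linked list levels of 3 mpi. That list holds mostly Y-linked genes, so these are the libraries without the female pattern. At 1 mpi the libraries highest on that list, replicates 1 and 4, had 5.846 and 5.975. The libraries low on it, replicates 2, 3 and 5 of 1 mpi, had 5.844, 5.883 and 5.922. Replicates 3, 5 and 6 of 3 mpi, also low on it, had 5.822, 5.92 and 5.874. The lower values at 3 mpi thus lay mainly in libraries without the female pattern. The part of sex was not tested beyond the fit with the sex-linked covariate.

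Cholesterol synthesis genes were mostly higher. Of 17 members, 16 had a log2 fold change above 0 (48% of all genes did), and the median was 0.18 (0.12 without replicate 3 of 1 mpi). At an unadjusted p under 0.05, 8 were higher, where 3.72% of all genes were, and none passed the test. Insig1, a sterol-regulated brake on the pathway, had a level of 58.57, 56.16, 51.79, 68.94 and 57.51 at 1 mpi and 59.81 to 83.16, median 75.88, at 3 mpi. Replicate 4 of 1 mpi lay inside the later range, and the log2 fold change was 0.34 (SE 0.0907, limma-trend adjusted p = 0.181). Msmo1, a sterol demethylation enzyme, had 0.23, and Lss, lanosterol synthase, 0.18. Lss was the 1 member whose groups did not overlap (0.508% of all genes were higher without overlap): 32.57, 32.25, 31.49, 32.58 and 31.44 against 33.62 to 42.09, median 35.19. The list's mean log2 level was 5.354 to 5.721 at 1 mpi and 5.517 to 5.762 at 3 mpi. Myelin and oligodendrocyte genes, whose cells need cholesterol for myelin, had 18 of 20 members higher with a median of 0.10, which was 0.04 without replicate 1 of 1 mpi and 0.07 without replicate 5 of 3 mpi; Aspa had 0.31, Hapln2 0.31, Opalin 0.36 and Mbp -0.05. The sum of the myelin list was 4039 to 5553 at 1 mpi and 4647 to 5972 at 3 mpi. The fit with the myelin list as a covariate was among the alternatives that left out no single library. Over those alternatives the cholesterol median ran from 0.17 to 0.20. The part of myelin in the cholesterol values was not tested beyond that fit.

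Glial response genes were mostly lower at 3 mpi, none passing. Of 26 disease-associated microglia genes, 23 were lower (median -0.14), 9 of them at an unadjusted p under 0.05, where 4.59% of all genes were. Without replicate 1 of 1 mpi the median was -0.24. At 1 mpi this list and the choroid plexus list both had their lowest mean log2 levels in replicates 1 and 4 (5.098 and 5.348 for microglia, 3.457 and 2.994 for choroid plexus), and at 3 mpi their highest in replicates 4 and 5 (5.439 and 5.469, and 4.902 and 6.382). With the choroid plexus level as a covariate the microglial median was -0.11. Trem2, the microglial lipid receptor, had a level of 15.97, 18.42, 19.61, 18.06 and 22.19 at 1 mpi and 13.45 to 18.52, median 14.48, at 3 mpi. The groups overlapped, with a log2 fold change of -0.30 (SE 0.11, limma-trend adjusted p = 0.421). Cd52 had -0.63, the phagosomal protein gene Cd68 -0.37, the protease gene Ctsb -0.12 and the lipid carrier gene Apoe -0.20. For Cd52 the libraries of 1 mpi fell into a low pair, 3.021 and 3.214, and a high trio, 6.914, 6.365 and 6.76, while those of 3 mpi ran from 1.888 to 4.036; the low pair were the libraries with high Ddx3y. Homeostatic microglia genes had 10 of 15 members lower (median -0.05), among them Csf1r with -0.16, Selplg with -0.27 and Aif1 with -0.28; replicates 2 to 6 of 3 mpi each moved that median by over 1.5 times when left out, to between -0.08 and -0.02.

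Of 26 reactive astrocyte genes, 23 were lower (median -0.16), 4 at an unadjusted p under 0.05, where 4.59% of all genes were. Steap4, a metalloreductase, had -0.61, with 1.421 to 3.395 at 1 mpi and 0.6094 to 2.018 at 3 mpi, and the small heat shock protein gene Hspb1 had -0.38. Gfap, the astrocyte intermediate filament, had -0.14 (adjusted p = 0.806, limma-trend): 622.2, 800.2, 859.7, 772.4 and 877.5 against 563.8 to 837.2, median 698.8. Astrocyte identity genes had 10 of 12 lower with a median of -0.06 (-0.04 without replicate 3 of 1 mpi or 2 of 3 mpi, -0.09 without replicate 4 of 3 mpi); Fgfr3 had -0.29 and the bicarbonate transporter gene Slc4a4 0.17. Complement genes had 10 of 12 lower (median -0.12); without single libraries the median ran from -0.23 (replicate 1 of 1 mpi) to -0.03 (replicate 5 of 1 mpi), and it also moved by over 1.5 times without replicate 2 (-0.06) or 4 (-0.21) of 1 mpi, replicate 3 (-0.04) or 5 (-0.20) of 3 mpi, or with the choroid plexus covariate (-0.06). C3, the central component, ran from 9.524 to 20.28 at 1 mpi and from 6.441 to 24.79 at 3 mpi, with a log2 fold change of -0.53 (SE 0.31, limma-trend adjusted p = 0.699), and C1qb had -0.29. Cytokine genes had 16 of 17 lower (median -0.12; Il1a -0.34), and lysosomal genes 22 of 24 (median -0.05; Psap, the precursor of the saposins, -0.16). After AD extract the same lists had medians of -0.47 for disease-associated microglia and -0.34 for reactive astrocytes; the difference of steps was not called for any member.

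**Figure D4:**
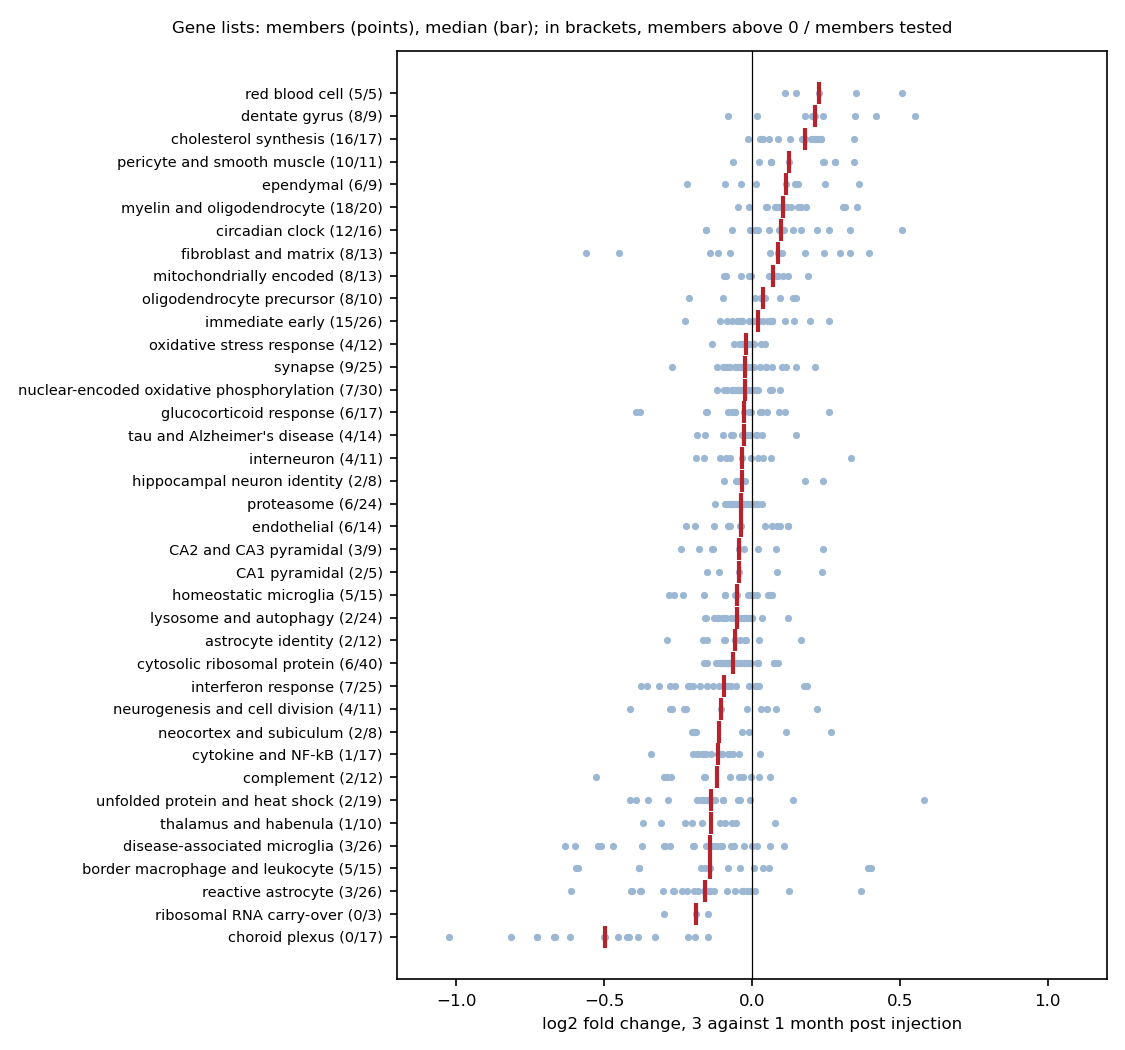
Log2 fold change of 3 against 1 mpi (x axis) for the members of 38 gene lists (points) with each list's median (red bar); the sex-linked list is left out. Numbers in brackets give the members above 0 and those tested; the clock, cholesterol and myelin lists have medians of 0.10 to 0.18 and the glial response lists lie below 0.

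Markers of hippocampal subregions and of neighbouring tissue also differed in level. All 17 choroid plexus genes had a log2 fold change below 0 (median -0.50), none at an unadjusted p under 0.05; the median ran from -0.09 without replicate 3 of 1 mpi to -0.98 without replicate 5 of 3 mpi, and 8 of the 11 libraries each moved it by over 1.5 times. Ttr, the secretory product of that epithelium, was 338.6, 1054, 4066, 307.4 and 2318 at 1 mpi and 164.5 to 5030, median 233.7, at 3 mpi, so the spread within each group exceeded the difference between them. Dentate gyrus genes had 8 of 9 higher (median 0.21, or 0.33 and 0.13 without replicates 1 and 3 of 1 mpi; Dsp 0.55, Tdo2 0.42), with a summed level of 205.5 to 361.4 at 1 mpi and 289.0 to 368.8 at 3 mpi. Thalamus and habenula genes had 9 of 10 lower (median -0.14), with 161.4 to 202.1 against 155.6 to 172.4. No marker of these 3 lists was at 0 in any of the 11 libraries. The part of dissection in the values above was not tested beyond the fits that carry these lists as covariates.

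Neuronal and disease genes showed small values. The synapse list had 16 of 25 members lower (median -0.02, above 0 without replicate 4 of 1 mpi or 5 of 3 mpi); Snap25, a vesicle fusion protein, had -0.02, and Stx1a, its partner syntaxin, -0.27 without overlap (adjusted p = 0.153, limma-trend). Mapt, which encodes tau, had -0.07 (SE 0.0479): 484.1, 460.1, 469.5, 521.7 and 461.4 at 1 mpi against 433.4 to 496.6, median 451.7, at 3 mpi. App, the amyloid precursor, had -0.06 (SE 0.0413). The activity gene Fos had -0.03 (SE 0.246), and immediate early genes as a list had 15 of 26 higher with a median of 0.02, which ran from -0.04 without replicate 2 to 0.11 without replicate 4 of 1 mpi. Cytosolic ribosomal protein genes had 34 of 40 lower with a median of -0.07, which was -0.04 without replicate 4 of 1 mpi or 3 of 3 mpi. Over the 39 lists, 12 medians lay above 0 and 27 below, and 1 list held a member that passed.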

How the data were processed

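Poly(A) RNA of mouse hippocampus was sequenced in 66 libraries. The submitters' processing notes name STAR, Picard and edgeR and the build GRCm38; the sources used here give no versions, annotation or counting rule. Each deposited value is a normalized signal, RPM divided by 1 factor per library. They are whole multiples of 1 read in 100% of values within 0.01 reads, so reads were recovered, and in the 12-month table the authors' factors equal TMM factors within 9.21e-10%.

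Genes passing filterByExpr (20084) were fitted with limma-trend 3.58.1 on log2(value + 1), 6 group means over 37 libraries, called at a Benjamini-Hochberg adjusted p under 0.05; a fold change on this scale understates low genes. The step between ages was fitted on recovered reads scaled by TMM over both tables (21297 genes). edgeR 4.0.16, DESeq2 1.42.0, other filters, pseudocount 0.1, covariates and leaving out libraries were alternatives. Only the limma-trend fit of the control step was tested on simulated counts. Symbols matched GENCODE vM21 for 96.5%; promoter windows came from RefSeq. Every pair of libraries in a group differed beyond counting noise (chi-square over degrees of freedom at least 7.0).

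Named genes were the 12 with the largest change each way among called genes with a mean log2 level of at least 1, filled by smallest p as values that did not pass, 3 each way for the differences of steps, up to 4 per list by smallest p, and fixed genes. Other members of the clock and chaperone lists, Omp, 4930578M01Rik and Gm14137 were named after their values were seen. The members and lists were chosen with earlier results of these data known. Some genes that the rule names are not reported here. Replicate numbers did not pair the groups.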

Additional observations from a re-analysis of the deposited data

Results flagged for a closer look

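A single library far from the rest of its group was looked for in 228 sets, 75 genes and 39 list scores in each of the groups compared, and 14 were found; chance gives about 5% of sets.

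At 1 mpi, Dbp in replicate 3 was 44.96, where the others ran from 27.15 to 31.89. Msmo1 was lowest in replicate 3 of 1 mpi at 80.0, against 93.65 to 96.78. Replicate 4 of 1 mpi was highest for Kcnj8 at 3.988, against 2.077 to 2.399, and for Npy at 27.88, against 20.76 to 22.62. At 3 mpi, Adamts20 was highest in replicate 6 at 19.21, against 15.8 to 17.02. Ints3 was lowest in replicate 4 at 63.68, against 71.64 to 76.16, and Kcnj8 was highest there at 5.105, against 2.865 to 3.371. Omp was highest in replicate 2 at 8.595, against 0.4407 to 3.185.

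The number flagged was near that given by chance, and values from the same library are not independent. Among the flagged sets, replicate 5 of 3 mpi appeared most often. Its Ttr level was 5030, against 164.5 to 1932, and its Stx1a level 52.82, against 64.08 to 68.89. Its mean log2 level was lowest for the cholesterol synthesis list (5.517, others 5.683 to 5.762), the interneuron list (5.792, others 5.908 to 5.96) and the neocortex and subiculum list (4.447, others 4.785 to 4.949). Without this library 10 genes passed in the control step. Replicate 2 of 3 mpi was lowest for the interferon list at 2.581, against 2.859 to 2.948.

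The control step differed between the age labels by a test of the difference for Ciart (-1.06), Dbp (-1.10) and Gm14137 (0.60), as described above.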

How the results depend on the processing

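The number of genes called in the control step, 4, became 9 with edgeR, 41 with DESeq2, 7 with a stricter filter, 0 with only the groups compared and 18 with a sex-linked covariate. It was 35 with a choroid plexus covariate. Covariates chosen after seeing the data gave 24 with dentate gyrus, 0 with myelin, and 62 with the clock list, which holds Dbp itself. Leaving out 1 library gave 0 to 10. All 4 genes kept their sign in all 26 alternatives, and the cause of lost calls was not tested. With the replicate number as a block, 2 genes passed, 4930578M01Rik and Mdga1; same-numbered libraries correlated from -0.15 to 0.36, 2 of 5 pairs over 0.1, so the numbers were not taken as pairs, and 1 of 5 correlated best with its own number. The difference from the AD step was 0 in every alternative. The difference between ages, 3 calls, became 1 with edgeR, 43 with DESeq2, 5 with each table as deposited, 1 with only the groups compared and 5 with the sex-linked covariate. Leaving out 1 library gave 1 to 50.

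Signs that turned all belonged to genes that did not pass. Arntl (0.01) was 0.00 with edgeR (-0.0021), -0.007 with DESeq2, -0.0054 with the replicate block, -0.0132, -0.0166 and -0.0095 with the sex-linked, choroid plexus and dentate gyrus covariates, and at its lowest -0.0757 without replicate 3 of 1 mpi and at its highest 0.1031 without replicate 4 (-0.0251 and -0.0105 without replicates 2 and 5, -0.0242 without replicate 2 of 3 mpi). Fos was 0.0018 and 0.0679 with the thalamus and myelin covariates and ran from -0.1636 without replicate 2 to 0.1354 without replicate 4 of 1 mpi (0.0864 without replicate 1, 0.0348 and 0.0804 without replicates 1 and 2 of 3 mpi). With the clock covariate Per1 was -0.1096, Per2 -0.1608, Mbp 0.0542 and Ttr 0.403. Snap25 was 0.0054 without replicate 5 and -0.0492 without replicate 3 of 3 mpi. Of 39 list medians, 21 kept their sign in all 26 alternatives, among them the clock, chaperone, cholesterol, disease-associated microglia and reactive astrocyte lists. Their size was not always kept. With the clock covariate the clock median was 0.01, the chaperone -0.23, the disease-associated microglia -0.07 and the reactive astrocyte -0.08. These microglia and astrocyte medians were both -0.23 with the myelin covariate. Complement and cytosolic ribosomal protein medians were both -0.01 with the clock covariate, and -0.20 and -0.07 with the myelin covariate. The choroid plexus median turned with its own and the clock covariate, the myelin, dentate gyrus and thalamus medians with their own, and that of homeostatic microglia with the clock covariate; where a single library moved a median described above by over 1.5 times, its value or the range stands beside it. The synapse median ran from -0.0445 to 0.0085 without single libraries, the endothelial from -0.1135 to 0.025 and the interneuron from -0.0772 to 0.0326.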

Other observations

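Cells of the vessel wall gave values of both signs, and no gene passed. Pericyte and smooth muscle genes had 10 of 11 members higher with a median log2 fold change of 0.12, which was 0.08 without replicate 4 of 1 mpi or replicate 4 or 5 of 3 mpi. Endothelial genes had 6 of 14 higher with a median of -0.04, whose sign turned without replicate 1 (0.01) or 3 (0.01) of 1 mpi or replicate 3 of 3 mpi (0.03). Abcc9 and Kcnj8, subunits of the pericyte potassium channel, had 0.24 and 0.28. Bdnf, a neurotrophin, was 50.87, 42.84, 42.26, 48.59 and 42.99 at 1 mpi and 51.59 to 59.96, median 53.93, at 3 mpi, without overlap (log2 fold change 0.26, limma-trend adjusted p = 0.425). The interneuron list had 4 of 11 members higher with a median of -0.03, which was 0.03 without replicate 4 of 1 mpi and 0.01 without replicate 5 of 3 mpi; its member Npy, a neuropeptide gene, had 0.33.

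Omp, the olfactory marker protein gene, ran from 0.1244 to 0.4828 at 1 mpi and from 0.4407 to 8.595 at 3 mpi, with 6 of 6 libraries above the mean of 1 mpi. It passed with edgeR's quasi-likelihood test (adjusted p = 0.0383) and with DESeq2 (adjusted p = 0.000615), and not with limma-trend (adjusted p = 0.137).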
